A study of Mus musculus with 7 samples.

Results

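The genes Serpinb2, Plau, Plaur, F3, F7, F10, F13a1 and Thbd, which act in blood clotting and clot breakdown, were followed in leukocytes of the mouse heart after myocardial infarction. They were taken by gene symbol, and all 8 were found among the 27514 genes that the annotations of the deposited matrices share. Transcripts of single cells were counted as unique molecular identifiers (UMIs) on the 10x Genomics platform, which reads their 3' ends. All mice were C57BL6/J, and those of the heart libraries were male. The infarct was made by permanent ligation of the left coronary artery. In the CD45+ experiment, CD45+ heart cells were sorted after a step that lowered neutrophil numbers, and cells labelled by CD45.2 antibody given into the blood were left out. It has 1 library without infarct (steady state, 5 mice pooled), 1 each at days 1, 3 and 5 (5 mice each) and 1 at day 7 (3 mice). The CD11b+ pool is a second experiment with the same intravenous exclusion, a sort on CD11b, a later chemistry (version 3 in place of 2), and hashtag antibodies that mark day 1 (5 mice), day 3 (5 mice) and day 5 (3 mice). A further pool of blood and heart CD11b+ cells of controls and of sham and infarct mice carries 7 hashtags that could not be tied to conditions here, so its values stand apart from all comparisons.

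As background, clotting outside vessels starts when tissue factor (F3) binds factor VII (F7) and the pair activates factor X (F10), which in turn leads to thrombin and fibrin. Factor XIII, whose A subunit F13a1 encodes, cross-links fibrin, and thrombomodulin (Thbd) turns thrombin towards the anticoagulant protein C. Fibrin is removed by plasmin. Urokinase (Plau) makes plasmin from plasminogen, its receptor (Plaur) holds urokinase at the cell surface, and the serpin PAI-2 (Serpinb2) inhibits urokinase. Monocytes and macrophages are known sources of several of these products in injured tissue.

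Cells were grouped by clusters rebuilt without these 8 genes, and UMIs were summed per class, day and experiment. Levels are given in CPM, the gene's UMIs per 1e6 UMIs of the summed cells. Between 522 and 1793 cells of each CD45+ library were used and 4263 of the CD11b+ pool, with median UMIs per cell from 3594 to 9463.5 in the former and 18232 in the latter. CD45+ libraries shared at most 2 cell barcodes with each other and 0 with the pools. Ptprc, which encodes CD45, and Itgam, which encodes CD11b, were detected in every sum of both classes, at 120 to 1134 and 75.3 to 768 CPM. Of the sums, 2 are weaker than the others. In the CD45+ day 1 library 210 of 245 monocytes/macrophages came from 1 cluster that could not be named, led by Cxcl3, S100a8, Lcn2 and Saa3. The 15 neutrophil markers summed there to 19228 CPM, against 160.1 to 2349 CPM in the other 7 monocyte/macrophage sums and 236332 CPM in neutrophils of the same library. The CD45+ day 5 neutrophils are 39 cells with 101622 UMIs, so 3 UMIs there amount to 29.5 CPM. Mice were pooled, so no test below measures the spread between mice. Tests of days measure how the day differences vary between 2 experiments, once the offset between the experiments is fitted. They have 2 residual degrees of freedom and borrow the spread of other genes. The prior degrees of freedom were 3.84 in monocytes/macrophages and 15.4 in neutrophils. The comparison of classes measures how the class difference varies over the 6 samples of days 1, 3 and 5 in both experiments. A class sum mixes cell states, so fewer cells of a state and less RNA per cell cannot be told apart in it.

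The genes lie on 7 chromosomes of GRCm38 (GENCODE M21), all protein coding. Serpinb2 is at chr1:107511423-107535478 on the plus strand, where it overlaps Serpinb10 on the same strand, so reads of the 2 genes could be split by the counting. Plau is at chr14:20836660-20843385 (+), Plaur at chr7:24462484-24475968 (+), F3 at chr3:121723537-121735048 (+), F13a1 at chr13:36867178-37050244 (-) and Thbd at chr2:148404466-148408188 (-). F7 (chr8:13026034-13035809, +) and F10 (chr8:13037308-13056676, +) are tandem neighbours with 1498 bases between them.

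Promoter sequences of RefSeq (GRCm38.p6) matched 6 of the 8 genes: Serpinb2, F3, Plaur, F7, F10 and F13a1. The 250 bases before the start site were searched on both strands for TGANTCA, the AP-1 motif that Fos and Jun proteins bind. It stood in the windows of Serpinb2, F3 and Plaur and not in those of F7, F10 and F13a1, and 6.75% of all 32851 promoters of the table held it. These 3 are shown because they hold the motif and belong to the members whose neutrophil level was highest on day 1 in both experiments. F13a1 had the same order in neutrophils, with day 1 highest in both experiments, and its windows held no match. In monocytes/macrophages F10 and F13a1, without the motif, were highest on day 1 in both experiments. F3, with the motif, was lowest on day 1 in monocytes/macrophages of the pool. Capitals mark the motif, which begins 94 bases before the start site in Serpinb2 (shown from the first of its 2 listed start sites), 146 before it in F3, where a further match follows, and 69 before it in Plaur. The windows are chr1:107511173-107511422, chr3:121723287-121723536 and chr7:24462233-24462482, all on the plus strand.
Serpinb2: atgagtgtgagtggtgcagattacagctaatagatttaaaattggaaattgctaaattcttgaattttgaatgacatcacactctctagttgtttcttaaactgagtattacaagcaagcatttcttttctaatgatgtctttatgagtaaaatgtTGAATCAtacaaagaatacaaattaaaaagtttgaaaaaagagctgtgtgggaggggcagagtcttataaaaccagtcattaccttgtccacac
F3: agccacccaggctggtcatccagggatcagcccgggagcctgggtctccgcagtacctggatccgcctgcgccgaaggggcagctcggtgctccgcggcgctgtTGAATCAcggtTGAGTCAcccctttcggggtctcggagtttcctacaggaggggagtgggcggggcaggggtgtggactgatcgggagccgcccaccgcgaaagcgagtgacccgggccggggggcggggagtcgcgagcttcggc
Plaur: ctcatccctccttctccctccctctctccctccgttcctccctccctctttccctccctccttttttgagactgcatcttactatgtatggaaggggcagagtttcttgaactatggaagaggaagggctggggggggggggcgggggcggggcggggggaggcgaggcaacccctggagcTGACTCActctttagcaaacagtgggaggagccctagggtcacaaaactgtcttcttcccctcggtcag
For NF-kB only exact matches to a fixed string of letters were counted. The windows of these 6 genes held none, against 1.41% of all promoters. The F3 window printed above holds a run of letters that differs from that string only at its first base. Variant NF-kB sites were not searched for, so the count does not show that a window lacks such a site. The motif of hypoxia-inducible factors (ACGTG) was found only in F10, against 16.6% of all promoters. A match is a run of letters and was not tested for binding.

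Tissue factor, the trigger of clotting, was higher in CPM in neutrophils than in summed monocytes/macrophages in 6 of 6 samples. CPM is a share of each class's UMIs, and the order per cell differed between samples. On pool day 1 F3 had 118 UMIs in 257 neutrophils and 23 in 224 monocytes/macrophages. On pool day 3 it had 176 UMIs in 1002 neutrophils and 274 in 1051 monocytes/macrophages. In neutrophils F3 stood at 67.9 CPM on day 1, 25.97 on day 3 and 29.5 on day 5 in the CD45+ experiment, and at 103, 42.8 and 24.4 CPM in the CD11b+ pool. Day 1 was the highest of the 3 days in both experiments. F3 fell by day 3 (log2 change -1.96 ± 0.42 SE, adjusted p = 0.0203, edgeR quasi-likelihood test with Benjamini-Hochberg adjustment over all genes) and was lower on day 5 than on day 1 (-2.76 ± 0.50, adjusted p = 0.00514). The CD45+ day 5 sum rests on 3 UMIs, and leaving out either day 5 sum ended both calls. Leaving out either day 3 sum ended the day 3 call.

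In monocytes/macrophages the 2 experiments differed in F3. The CD45+ sums held 1.03, 46.3, 0.688, 1.33 and 4.03 CPM at steady state and days 1, 3, 5 and 7. In the CD11b+ pool F3 was at 4.30, 7.92 and 7.59 CPM on days 1, 3 and 5. The high CD45+ day 1 value is in the library whose monocytes/macrophages carry neutrophil transcripts: S100a8, S100a9 and Retnlg reached 7.93% of their neutrophil level there, and F3 68.2%. No F3 change passed the test in this class (day 5 against day 1, -2.72 ± 1.54, adjusted p = 0.274).

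F3 UMIs in the pool's macrophages came from few cells. On day 3 it was found in 58 of 1051 cells, 5 of which held 47.4% of the 274 UMIs, and on day 5 in 55 of 1201 cells, 5 of which held 54.0% of 298 UMIs. Of these UMIs, 213 and 234 were in the Arg1-high-like state described below, where F3 was at 4.69 CPM on day 1, 125 on day 3 and 174 on day 5, above the 42.8 and 24.4 CPM of neutrophils on the later days. There 23 of 73 cells carried it on day 3 and 17 of 54 on day 5. This is 1 pool, and the difference between its days was not tested.

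Factor VII, the partner of tissue factor, was a macrophage transcript at low level. F7 was at 57.6, 42.2 and 31.2 CPM on days 1, 3 and 5 in pool monocytes/macrophages. In the CD45+ experiment it was at 1.55, 7.79, 23.9, 11.4 and 5.58 CPM at steady state and days 1, 3, 5 and 7. The 2 experiments thus put the highest level on different days, and no day difference passed the test (day 5 against day 1, -0.71 ± 0.43, adjusted p = 0.304, edgeR). In neutrophils F7 stayed between 0 and 8.86 CPM and was too low for the day tests.

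Factor X, whose plasma form comes from the liver, was high in both classes after the infarct and near 0 in monocytes/macrophages, the class summed there, at steady state. F10 had 6 UMIs (1.55 CPM, 95% Poisson interval 0.570 to 3.38) in steady-state monocytes/macrophages. After infarction the CD45+ sums held 366, 243, 65.5 and 29.9 CPM on days 1, 3, 5 and 7, and the pool held 477, 145 and 40.0 CPM on days 1, 3 and 5. Each later day had a lower value, to day 7 in the CD45+ experiment and to day 5 in the pool. F10 fell by day 5 (-3.32 ± 0.31, adjusted p = 0.00697, edgeR), a 10.0-fold lower level than on day 1, whereas the day 3 difference did not pass (-1.41 ± 0.29, adjusted p = 0.105). Without the clusters led by genes of other cells, which takes out the 210-cell cluster of the CD45+ day 1 library, the day 5 value was -2.48 and no longer passed.

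Neutrophils held F10 at 108, 269 and 108 CPM on days 1, 3 and 5 in the CD45+ experiment and at 281, 177 and 149 CPM in the pool. The order of days differs between the experiments, and no day difference passed the test (day 5 against day 1, -1.46 ± 0.47, adjusted p = 0.0684). Its neutrophil level was 29.5 to 374% of that in monocytes/macrophages of the same sample, while C1qa, C1qb and C1qc together, which macrophages make, reached 3.90 to 13.5%. All 24 monocyte/macrophage markers together summed to 8785 to 23013 CPM in the neutrophil sums. In the monocyte/macrophage sums of these days they reached 29260 to 91130 CPM. The part of monocyte RNA in the neutrophil F10 level was not tested. Over the 31 state sums described below the levels of the neighbours F7 and F10 correlated at r = 0.38 (a description, with no p).

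Factor XIII A, the fibrin cross-linker, was high in macrophages with and without infarct. F13a1 stood at 808, 926, 342, 190.1 and 276 CPM in monocytes/macrophages of steady state and days 1, 3, 5 and 7, and in the pool at 742, 362 and 295 CPM on days 1, 3 and 5. The steady-state and day 1 sums are high and the later ones lower. F13a1 fell by day 5 (-2.06 ± 0.28, adjusted p = 0.0157, edgeR), and the day 3 difference did not pass (-1.48 ± 0.27, adjusted p = 0.0816). Platelets also carry F13a1. The 7 platelet markers summed to 1702 to 3122 CPM in these sums with 2 to 6 of them above 0, and Gp9, Itga2b, Gp1bb, Tubb1 and Treml1 were all at 0 in the CD45+ day 1 sum, where F13a1 was highest. Pf4, a marker of this list, was also among the leading genes of a monocyte/macrophage cluster of 1285 cells in the pool. The part of platelet RNA in the result was not tested. In neutrophils F13a1 was at 42.6, 25.97 and 19.7 CPM on days 1, 3 and 5 (CD45+) and at 30.7, 14.8 and 15.5 CPM (pool), which is 4.09 to 10.4% of the level in monocytes/macrophages of the same sample and within the 3.90 to 13.5% of the C1q genes. A neutrophil day effect passed the test (day 5 against day 1, -1.88 ± 0.55, adjusted p = 0.0479), and it was lost without the pool's day 1 or day 5 sum or the CD45+ day 5 sum, and with DESeq2.

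Thrombomodulin, the anticoagulant of the set, was highest on day 1. Thbd in monocytes/macrophages was at 33.9, 139, 45.1, 16.3 and 23.7 CPM at steady state and days 1, 3, 5 and 7 in the CD45+ experiment, and at 166, 66.5 and 31.1 CPM on days 1, 3 and 5 in the pool. Both experiments have their highest value on day 1 and the values of days 1, 3 and 5 do not overlap between the days. Thbd fell by day 3 (-1.71 ± 0.23, adjusted p = 0.0493, edgeR) and by day 5 (-2.98 ± 0.24, adjusted p = 0.00565). The day 3 call was lost without either day 3 sum, with no term for the experiment (edgeR, adjusted p = 0.821), with total counts alone (0.0759), with cells classed by their own markers (0.0561) and without the clusters led by genes of other cells (0.101). Endothelium also carries thrombomodulin. The 8 endothelial markers summed to 43.3 to 163 CPM in these sums with 5 to 8 of them above 0, and in the CD45+ day 1 sum, where their sum was lowest, Cdh5, Emcn and Tie1 were at 0 and the other 5 above 0. Their part in the Thbd levels was not tested. Neutrophils held 0 to 11.1 CPM, below the filter of the day tests.

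The urokinase receptor was detected in monocytes/macrophages at every time and in neutrophils on days 1, 3 and 5, the days with a neutrophil sum. Plaur in monocytes/macrophages stood at 102, 1919, 825, 511 and 377 CPM at steady state and days 1, 3, 5 and 7 (CD45+), and at 742, 290 and 189 CPM on days 1, 3 and 5 (pool). The CD45+ value exceeded the pool's on each of the 3 shared days, and both experiments show the same order of days. Plaur fell by day 3 (-1.51 ± 0.15, adjusted p = 0.0462, edgeR) and by day 5 (-2.20 ± 0.15, adjusted p = 0.00529). The day 3 call was lost without either day 3 sum, and both calls were lost without the clusters led by genes of other cells.

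Neutrophils held fewer Plaur UMIs per cell than monocytes/macrophages. On CD45+ day 1 there were 2771 UMIs in 216 neutrophils and 4434 in 245 monocytes/macrophages. On pool day 3 there were 3052 in 1002 and 10020 in 1051. As a share of all UMIs Plaur stood higher still in neutrophils, at 3190 CPM on day 1, 1965 on day 3 and 1240 on day 5 (CD45+) and at 1983, 742 and 800 CPM (pool). It was lower on day 5 than on day 1 (-2.30 ± 0.45, adjusted p = 0.00696), a call lost without either day 5 sum, and the day 3 difference was just outside the threshold (-1.70 ± 0.44, adjusted p = 0.0509). B cells of day 7 also held Plaur, at 217 CPM, 57.5% of the level in monocytes/macrophages of that library, where the C1q genes reached 10.7%.

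No change of urokinase, the ligand of this receptor, passed the test. Plau was at 22.5, 3.46, 12.9, 18.4 and 12.1 CPM in monocytes/macrophages of steady state and days 1, 3, 5 and 7, and at 14.0, 17.2 and 18.4 CPM on days 1, 3 and 5 of the pool. Among these the CD45+ day 1 sum, with 8 UMIs, was the lowest. No day difference of Plau passed the test in either class (monocytes/macrophages, day 5 against day 1, 0.79 ± 0.41, adjusted p = 0.245; neutrophils, 0.03 ± 0.62, adjusted p = 0.985, edgeR). Neutrophils held it at 4.60, 11.8 and 19.7 CPM on days 1, 3 and 5 (CD45+) and 21.9, 42.8 and 33.2 CPM (pool).

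PAI-2, the urokinase inhibitor, had the largest fitted change of the 8 genes in monocytes/macrophages. Serpinb2 had 1 UMI (0.259 CPM) at steady state, and stood at 235, 55.0, 4.15 and 6.05 CPM on days 1, 3, 5 and 7 in the CD45+ experiment. The pool held 159, 12.6 and 3.69 CPM on days 1, 3 and 5. Serpinb2 fell by day 5 (-5.76 ± 0.54, adjusted p = 0.00697, edgeR), to a 54.3-fold lower level. The day 3 difference was large and just outside the threshold (-3.03 ± 0.47, adjusted p = 0.0641). Few cells carried it: on day 1 it was found in 66 of 245 cells (CD45+), 5 of which held 42.8% of its UMIs, and in 47 of 224 cells (pool), 5 of which held 46.2%.

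In neutrophils Serpinb2 was at 62.2, 30.7 and 0 CPM on days 1, 3 and 5 (CD45+) and at 71.0, 9.48 and 26.6 CPM (pool). It was lower than on day 1 both on day 3 (-2.72 ± 0.62, adjusted p = 0.0264) and on day 5 (-2.46 ± 0.65, adjusted p = 0.0324). Leaving out the pool's day 3 or day 5 sum ended the day 3 call, and leaving out either day 5 sum ended the day 5 call. On pool day 5 a single cell held 70.8% of the 24 UMIs, and the CD45+ day 5 sum holds 0 UMIs (95% Poisson upper limit 36.3 CPM).

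**Figure D1:**
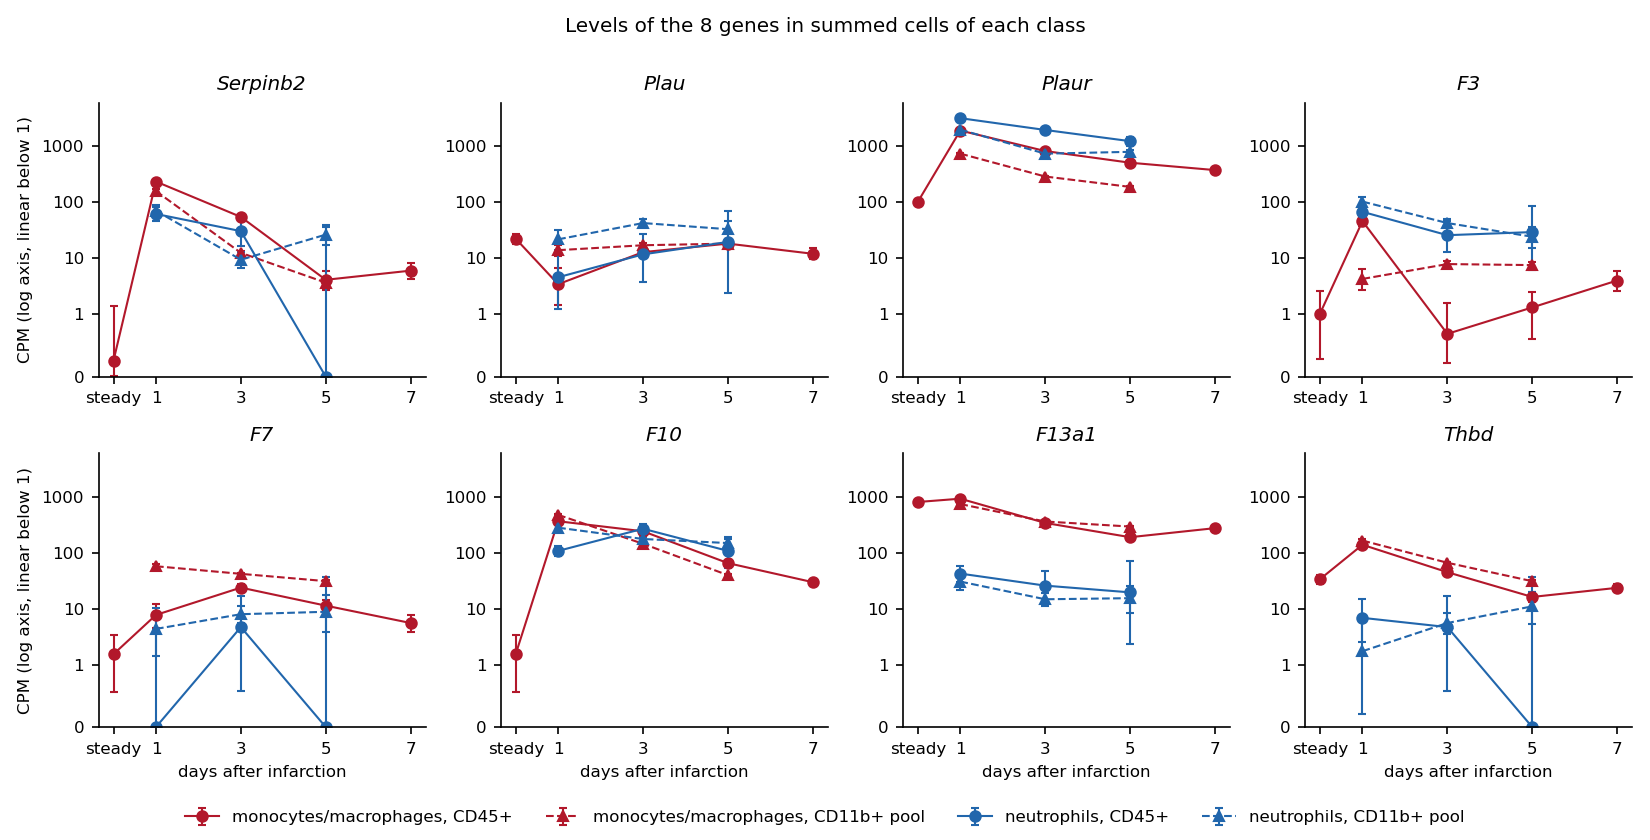
Level of each gene (CPM on a log axis that is linear below 1) against day after infarction, in summed monocytes/macrophages (red) and neutrophils (blue) of the CD45+ experiment (circles, solid) and the CD11b+ pool (triangles, dashed). Bars are 95% Poisson intervals, which cover counting error only. Serpinb2, F10, Plaur and Thbd in monocytes/macrophages are highest on day 1 in both experiments, and Plau is lowest in the CD45+ day 1 sum.

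Counted over the set, 5 of the 8 genes were lower on day 5 than on day 1 in monocytes/macrophages (Serpinb2, Plaur, F10, F13a1 and Thbd), none was higher, and the median log2 change was -2.46. Over all 10623 genes tested 10.4% were called, 5.87% as lower and 4.53% as higher, with a median of -0.02. By day 3 the count was 2 of 8 (Plaur and Thbd, both lower), against 0.81% of all genes and 0.574% as lower. Between day 5 and day 3 no member was called, although 4 had an unadjusted p under 0.05 (Serpinb2, Plaur, F10 and Thbd), and edgeR called 0.0188% of all genes. DESeq2 called 4 members in that contrast and 5 by day 3. Without the term for the experiment no member was called by day 3 or day 5.

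In neutrophils 6 members passed the filter on low counts, all but F7 and Thbd. Of these 2 were lower on day 3 than on day 1 (Serpinb2 and F3), against 2.43% of 6162 genes called and 1.9% as lower. By day 5 the count was 4 (Serpinb2, Plaur, F3 and F13a1, all lower), against 7.11% and 5.26%. When cells were classed by their own marker UMIs in place of their cluster, or when the term for the experiment was left out, no member was called on either day. Between days 5 and 3 edgeR called no member and 0% of all genes, with 1 member (F10) at an unadjusted p under 0.05, and DESeq2 called 0 members.

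**Figure D2:**
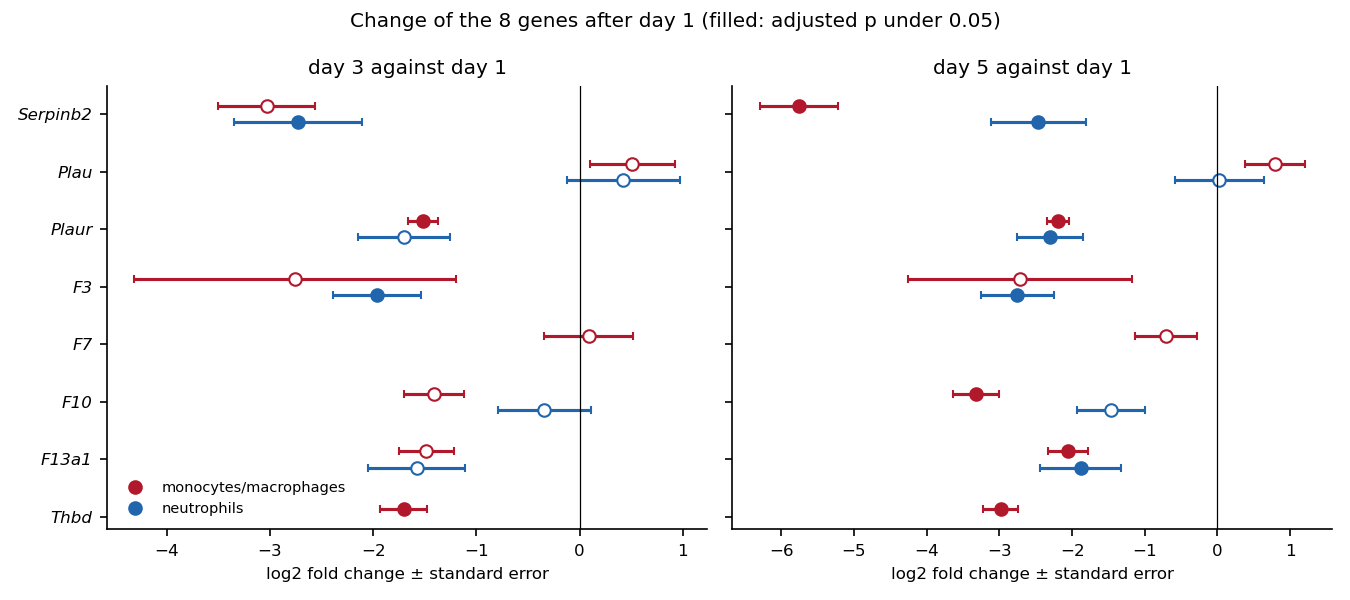
Fitted log2 change (x axis, bars 1 standard error) of each gene on day 3 (left) and day 5 (right) against day 1, in monocytes/macrophages (red) and neutrophils (blue). Filled points passed an adjusted p of 0.05. F7 and Thbd have no neutrophil point because they did not pass the filter, and Plau lies above 0 in both classes on both days.

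Neutrophil changes depend on the scaling. With TMM factors, which assume that most genes do not change, the median log2 change of all neutrophil genes was 0.00 by day 3 and -0.03 by day 5. With library totals alone it was 0.67 and 0.89, and the calls by day 5 turned from 114 higher and 324 lower to 1030 higher and 80 lower. Under total counts no member was called by day 3 and 2 (F3 and Plaur) by day 5, all values of called members remaining below 0. In monocytes/macrophages the same change of scaling moved the median to 0.22 and 0.23, turned 481 higher and 624 lower calls by day 5 into 649 and 349, and left 0 members called by day 3 and the same 5 by day 5.

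Whether a day effect differed between the classes was tested as an interaction. No member was called by day 3 (0 with an unadjusted p under 0.05) or by day 5 (3 with an unadjusted p under 0.05), against 0.0197% and 0.65% of 10158 genes (0.345% with the higher effect in neutrophils by day 5). DESeq2 called 0 and 1. On simulated data with 4-fold differences this test recovered 16% and 9% of the changed genes, so a count of 0 says little.

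The classes were also compared with each other, as shares of UMIs and not as UMIs per cell. Over the 6 samples of days 1, 3 and 5, 6 of 8 members were called between neutrophils and monocytes/macrophages of the same sample, against 56.7% of 8524 genes. F3 (log2 difference 3.11 ± 0.51, adjusted p = 9.04e-05) and Plaur (1.75 ± 0.21, adjusted p = 3.7e-06) were higher in neutrophils in 6 of 6 samples and Plau (1.12 ± 0.27, adjusted p = 0.00259) in 5 of 6, all by edgeR with the sample as a block. Of all genes, 25.2% were higher in neutrophils. F13a1 (-3.82 ± 0.23), Thbd (-3.24 ± 0.40) and F7 (-2.24 ± 0.32) were lower in neutrophils in 6 of 6 samples, against 31.5% of all genes. Neither Serpinb2 (0.05 ± 0.40, adjusted p = 0.923) nor F10 (0.48 ± 0.28, adjusted p = 0.162) passed, and Serpinb2 was lower in neutrophils in 5 of 6 samples despite its fitted value. Without the block for the sample the call of Plaur was lost. Scaling by totals moved the median of all genes from -0.14 to -0.57 and ended the call of Plau.

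Shares of cells with at least 1 UMI were compared at equal depth. Each cell was thinned to 2000 UMIs and shallower cells were left out, since the median depth was 2542 to 4333 UMIs in neutrophils and 8192 to 30137 in monocytes/macrophages of these days. Plaur was then found in 93.7, 83.0 and 69.2% of CD45+ neutrophils on days 1, 3 and 5 and in 89.5, 69.7 and 46.9% of monocytes/macrophages, against 33.8% of B cells and 12.6% of T cells of day 7. F3 was found in 12.1% of CD45+ neutrophils on day 1 (95% exact binomial interval 7.83 to 17.6) and 10.2% of pool neutrophils (6.65 to 14.8), against 0.104% of B cells (median 2756.5 UMIs).

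F10 reached 7.58 to 26.7% of neutrophils over the 6 samples, against 0.311% of B cells and 0.202% of steady-state monocytes/macrophages. F13a1 was found in 26.3 to 73.9% of monocytes/macrophages of these days and in 0 to 7.89% of neutrophils, with 2.59% in B cells. Serpinb2 was found in 15.5 and 12.1% of day 1 monocytes/macrophages and 6.84 and 2.55% of day 1 neutrophils, with 0.519% in B cells. Before thinning Plaur was found in 96.7% of CD45+ day 1 monocytes/macrophages, F13a1 in 92.7% and F3 in 16.7% of neutrophils of that sample. In all, 19 of 48 pairs of gene and sample had the higher share in neutrophils.

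**Figure D3:**
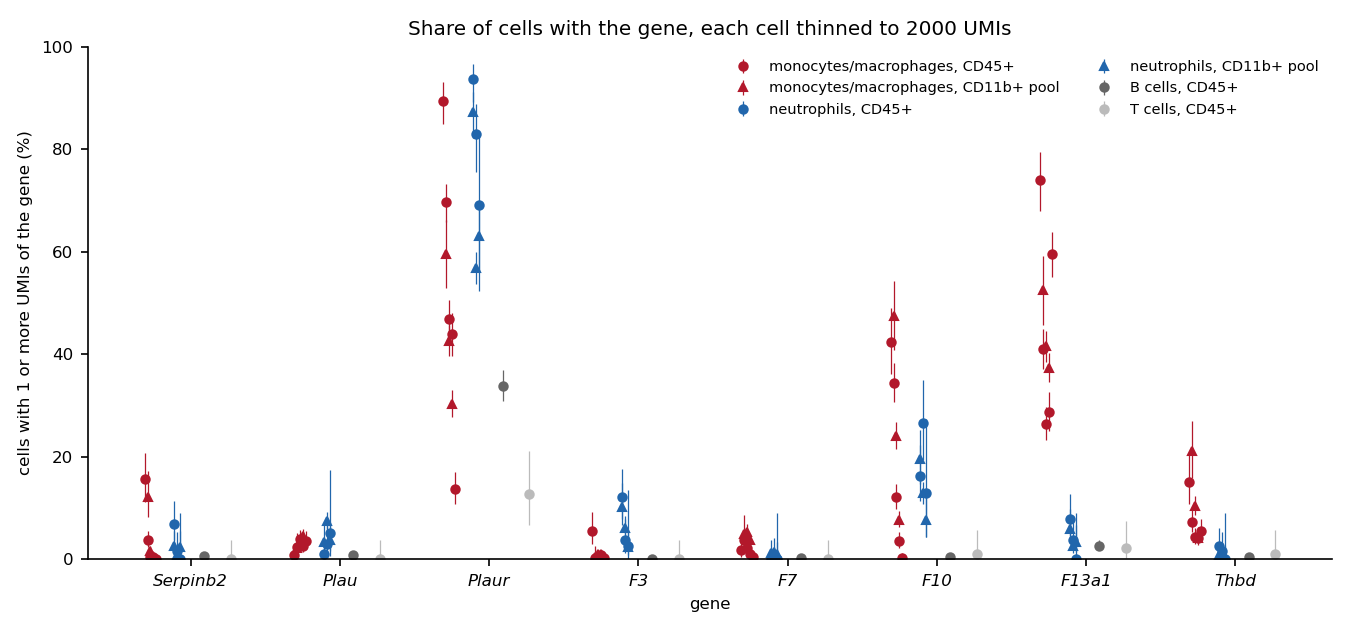
Share of cells (y axis, percent) with at least 1 UMI of each gene after each cell was thinned to 2000 UMIs, by class (colour) and experiment (marker), with 95% exact binomial intervals for counting error. Each point is 1 sample. Plaur, F10 and F13a1 reach large shares, and B and T cells of day 7 show the level in cells of other lineages.

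Monocytes and macrophages were split further into clusters named from marker lists, and 31 sums of a cluster and a sample held at least 30 cells. A resident-type-like cluster (led by Mgl2, Cd83, Retnla and Folr2) made up 401 of 524 steady-state cells and 57 of 570 on day 7. Ly6c2 monocyte-like clusters were led by Plac8, Chil3 and Ly6c2, Trem2/Gpnmb-like clusters by Fabp5, Spp1 and lipid-handling genes, and in the pool an Arg1-high-like cluster by Saa3, Cxcl3, Arg1 and Ccl24. Clusters are sets of the same cells, so their differences are given as ranges without a test.

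The Arg1-high-like cells of the pool (119, 73 and 54 cells on days 1, 3 and 5) had the highest median over days among the named states of that experiment for Serpinb2, F3, F7, F13a1 and Thbd. Serpinb2 there was at 257, 125 and 63.9 CPM on days 1, 3 and 5, against 11.2 to 18.1 CPM in Ly6c2 monocyte-like cells and 0 to 3.42 CPM in the Trem2/Gpnmb-like, interferon-like and proliferating-like states. Within the state its level was lower on each later day. Serpinb2 was found in 38 of the 119, 17 of the 73 and 7 of the 54 cells. The 5 highest cells held 47.8, 85.0 and 97.7% of its UMIs, so the order of days rests on few cells. F7 was at 79.4, 120.0 and 68.4 CPM against 15.5 to 63.0 CPM in the other named states, and Thbd at 218, 140.5 and 74.3 CPM against 19.0 to 102 CPM. Of the 5 genes, Thbd is the one whose ranges overlap.

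F10 was high in the same cells and in monocytes. It stood at 571, 296 and 259.5 CPM in Arg1-high-like cells, at 192 to 398 CPM in Ly6c2 monocyte-like cells of the pool and at 142 to 315 CPM in those of the CD45+ experiment. Trem2/Gpnmb-like cells held 18.6 to 40.2 CPM in the pool and 19.99 to 91.8 CPM in the CD45+ experiment. Resident-type-like cells held 0 UMIs at steady state and 9.59 CPM on day 7, which is 5 UMIs in 1 of 57 cells. Within Ly6c2 monocyte-like cells the level was lower on each later day of the CD45+ experiment, at 315, 209 and 142 CPM on days 3, 5 and 7.

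Plaur was high in the same pair of states, with 804, 435.5 and 447 CPM in Arg1-high-like and 505.5 to 695 CPM in Ly6c2 monocyte-like cells of the pool, and 731 to 1164 CPM in the latter of the CD45+ experiment. Interferon-like cells of CD45+ day 1 (32 cells) lay in that range for Plaur, at 899.6 CPM. They also held 905 CPM of F13a1 and 91.0 CPM of F3, the latter being 17 UMIs in 4 cells. Trem2/Gpnmb-like cells held 162.5 to 221 CPM of Plaur (pool) and 200.4 to 523 CPM (CD45+). Resident-type-like cells held 94.3 CPM of Plaur at steady state and 245.5 CPM on day 7.

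F13a1 took another course. Resident-type-like cells held 839 CPM at steady state and 1226 CPM on day 7, where Trem2/Gpnmb-like and MHC II-high-like cells of day 7 held 184 and 163 CPM. In the pool it ranged from 181 CPM (proliferating-like, day 5) to 956 CPM (Arg1-high-like, day 1). Plau ranged from 11.9 to 30.6 CPM in the named states of the pool.

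An unnamed cluster of the CD45+ experiment, led by Saa3, Hp and Irg1, stood out for Serpinb2 on day 3. It held 288 CPM there, in 23 of 90 cells, against 29.5 CPM in Ly6c2 monocyte-like cells. On day 5 it held 72.6 CPM against 0.805 CPM, but all 16 UMIs were in 1 of its 37 cells. The Ly6c2 monocyte-like value of day 5 is 1 UMI. F10 in the unnamed cluster was high as well, at 363 and 245 CPM on days 3 and 5. The unnamed cluster that fills the CD45+ day 1 library held 256.5 CPM of Serpinb2, 397 of F10, 2019 of Plaur and 927 of F13a1, and makes up 210 of the 245 cells behind the CD45+ day 1 class levels. At a finer clustering (resolution 1) 9 of 16 pairs of gene and experiment kept their highest named state, 8 of 8 in the pool and 1 of 8 in the CD45+ experiment.

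**Figure D4:**
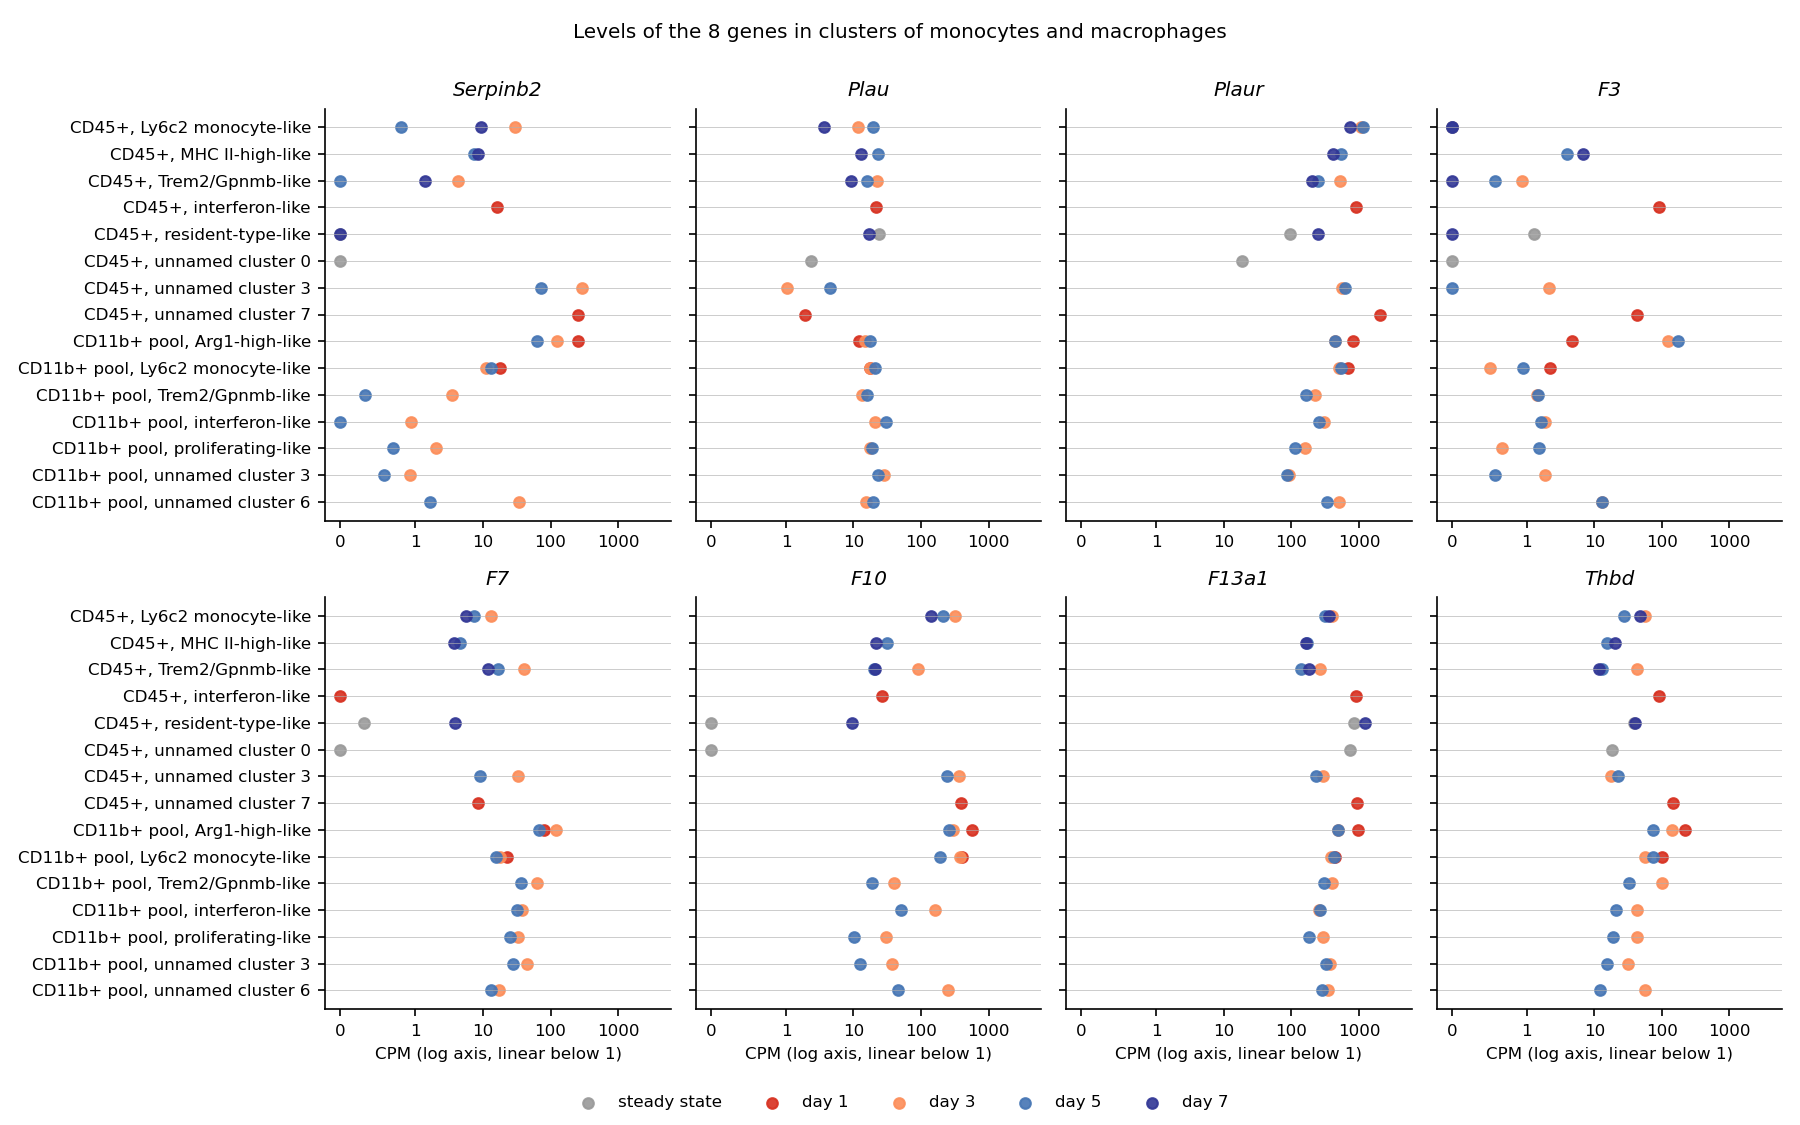
Level of each gene (CPM, log axis that is linear below 1) in each monocyte/macrophage cluster of the 2 experiments, 1 point per sample with at least 30 cells, coloured by day. Serpinb2 is highest in Arg1-high-like cells and the unnamed clusters 3 and 7 of the CD45+ experiment, and the highest F13a1 point is that of resident-type-like cells on day 7.

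Steady state and day 7 have 1 library each, so only ratios with counting intervals can be given. From steady state to day 1 in monocytes/macrophages Plaur was 18.7 times higher (95% exact interval 16.9 to 20.8), F10 236 times (108 to 645) and Thbd 4.11 times (3.35 to 5.08), and F13a1 1.15 times (1.08 to 1.21). Plau was lower on day 1, at 0.154 times its steady-state level (0.0644 to 0.317). Serpinb2, with 1 steady-state UMI, gives a ratio of 910.1 with an interval of 163 to 36014.

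For all members but F13a1, day 7 lay nearer to steady state than day 1 did. For F7 this order was within counting error, with day 7 at 0.717 times day 1 (0.396 to 1.34). Plaur was still 3.69 times its steady-state level (3.31 to 4.11) and F10 19.3 times (8.70 to 53.2), whereas F13a1 was at 0.341 times (0.322 to 0.362) and Thbd at 0.700 times (0.551 to 0.891). Of the steady-state cells 103 sat in a cluster led by heart muscle genes, which held 726 CPM of F13a1 and 18.5 CPM of Plaur.

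The genes most like each member were found over the 31 state sums, as Pearson r of log2(CPM + 10) centred within experiment, among 4750 genes with a mean of at least 20 CPM. Sums of 1 library share its depth and chemistry, so r is a description. F10 went with Slc16a3 (0.94), Mcemp1 (0.93) and Slpi (0.93), and Plaur with Clec4e (0.93), Arg2 (0.93) and Slc7a11 (0.92). Serpinb2 was closest to Fbxl5 (0.90), Rbpms (0.88) and Ero1l (0.87), and Thbd to Ccl9 (0.82), Xbp1 (0.80) and Errfi1 (0.80). F13a1 went with Cd163 (0.77), Herpud1 (0.77) and Sertad2 (0.75), and F7 with Afg3l2 (0.78), Fam20c (0.75) and Degs1 (0.75). Among the members themselves Plaur and F10 were closest (0.85), followed by Serpinb2 and F10 (0.76), while F13a1 correlated with F10 at 0.11 and with F7 at -0.13.

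Other genes of these pathways came from a list of 43, of which 42 were in the files, 20 passed the filter in monocytes/macrophages and 9 in neutrophils. By day 5, 5 of the 20 were lower in monocytes/macrophages and 1 was higher, with a median change of -0.69, against 5.87% lower, 4.53% higher and a median of -0.02 over all genes. Among those that fell were Anxa2 (-1.39) and S100a10 (-1.19), which form a plasminogen receptor, and Eno1 (-1.80), a glycolytic enzyme that also binds plasminogen. Itgam, a chain of a leukocyte fibrinogen receptor and the marker of the pool's sort, fell as well (-2.07), and by day 3 it was the 1 gene of the 20 called (-1.30), against 0.81% of all genes.

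The gene that rose was Vkorc1, which encodes the enzyme that recycles vitamin K for the carboxylation of factors VII and X. It was at 92.8, 3.89, 24.5, 48.0 and 59.1 CPM at steady state and days 1, 3, 5 and 7 (CD45+) and at 10.8, 25.1 and 32.5 CPM on days 1, 3 and 5 (pool), a change of 2.06 ± 0.41 by day 5 (adjusted p = 0.0363, edgeR). In neutrophils Itgam was the 1 gene of the 9 called by day 3 (-1.69), against 2.43% of all genes. By day 5 Itgam (-2.08), Anxa2 (-1.62) and Eno1 (-1.45) were lower, against 5.26% of all genes, and none was higher.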

How the data were processed

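Single-cell 3' RNA libraries of leukocytes from infarcted and steady-state mouse hearts were read as deposited UMI count matrices. The authors made the counts with Cell Ranger on GRCm38/mm10, per the submitters' processing notes, with version 3.0.2 in the file headers of the pools. The members and gene lists were chosen with earlier results of these data known. Cells under 200 detected genes or over 10% mitochondrial UMIs were left out. Doublets were removed with Scrublet in the CD45+ libraries and by hashtags in the pools, where an estimated 4.75% of the CD11b+ pool's cells remain as doublets of a single hashtag. Cells were clustered in scanpy 1.11.5 (2000 variable genes, 30 components, Leiden resolution 0.5) without the members and their pathway genes. Clusters were named "X-like" from marker lists, in a second pass that was widened after the clusters had been seen.

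UMIs were summed per class or cluster and sample (at least 30 cells). Sums of days 1, 3 and 5 were tested in edgeR 4.0.16 (quasi-likelihood test, TMM, filterByExpr, Benjamini-Hochberg over all genes, threshold 0.05), with the experiment as a term, or the sample for the comparison of classes. DESeq2 1.42.0 was an alternative. The fits were tested on simulated counts with 200 genes changed by 2 on the log2 scale and recovered 82.5% and 84.0% of them in monocytes/macrophages (days 3 and 5 against 1), 72.5% and 54.5% in neutrophils and 99.5% between classes. Intervals are 95% exact Poisson or binomial and cover counting error only. All 8 members are named. Of the pathway list, genes past the threshold with a mean of at least 20 CPM are named, except 1 that is not reported here, and of like genes the 3 with the highest r.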

Additional observations from a re-analysis of the deposited data

Results flagged for a closer look

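The pool of blood and heart CD11b+ cells enters no comparison, because its 7 hashtags could not be tied to a condition or to blood and heart. It still held UMIs of most members above the limit that a count of 0 allows, and these are given as medians over the 7 hashtags. In its monocytes/macrophages F13a1 was at 798 CPM, F10 at 179.8, Plaur at 119, Thbd at 32.6, Serpinb2 at 12.4, F7 at 2.07 and Plau at 1.46 CPM. In its neutrophils Plaur was at 144.6 CPM, F13a1 at 12.6, Thbd at 9.62 and F10 at 4.03 CPM. F3 was near 0 in these neutrophils, at a median of 0.537 CPM (0.235 to 3.50), with 1 to 8 UMIs per hashtag. Neutrophil Plaur ranged from 92.3 to 279.8 CPM over the hashtags and F10 from 2.23 to 29.7 CPM, the highest of both in the neutrophils of hashtag 6.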

How the results depend on the processing

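Over 241 alternative fits of the 19 member changes that passed, 241 kept the direction and 189 passed again. In monocytes/macrophages, day 3 against day 1, the 2 called members became 5 with DESeq2 or no filter, 1 with cells classed by their own markers, and 0 with total counts alone, with no experiment block or without clusters led by genes of other cells (0 to 8 leaving out 1 sum). By day 5 the 5 became 0 with no experiment block and 3 without those clusters (5 to 7 leaving out 1 sum). Day 5 against day 3 gave 0, but 4 with DESeq2 and 3 with no filter (0 to 6 leaving out 1 sum). In neutrophils the 2 of day 3 became 0 with own markers, total counts or no experiment block (0 to 4 leaving out 1 sum), and the 4 of day 5 became 0, 2 and 0 (0 to 5). Between classes the 6 ranged from 6 to 7 leaving out 1 sample. The interaction of day 5, with 0, gave 1 with DESeq2, 3 with no filter and 3 with total counts (0 to 4 leaving out 1 sample), and that of day 3 gave 0 to 2. The class difference of Serpinb2, which did not pass, changed sign to -0.048 with DESeq2, -0.089 with no filter, -0.49 with total counts and -0.58 with no sample block, and ranged from -0.50 (without the pool's day 5) to 0.37 leaving out 1 sample. At resolution 1, 9 of the 16 highest states were kept. At 1000 UMIs 16 pairs, in place of 19, had the higher share in neutrophils. The 241 fits are not independent, since those leaving out 1 sum reuse the others. For neutrophil days, naming clusters in 1 pass repeated the main fit, with 150 and 438 genes called in both. The cause of these changes was not tested. Experiments differ in sort, chemistry and mice together, and these cannot be told apart. By replicate number, no paired analysis was possible because each group of the labels is 1 library with the same number. The pairing in the tests is that of days within an experiment and of classes within a sample.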

Other observations

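The blood and heart pool also holds a nonclassical monocyte-like cluster, a state that was not found in the main clusters of the heart libraries. Over the 5 hashtags with at least 30 of these cells F13a1 was at 3.20 to 18.8 CPM and Thbd at 71.9 to 103 CPM. In the Ly6c2 monocyte-like cells of the same pool (7 hashtags) F13a1 was at 1160 to 1478 CPM and Thbd at 15.7 to 26.5 CPM, so the 2 kinds of monocyte had opposite orders of the cross-linker and the anticoagulant, without overlap. F10 was at 68.7 to 108 CPM in the former and 197 to 276 CPM in the latter. Trem2/Gpnmb-like cells reached 30 cells in 2 hashtags, with F10 at 234 and 357 CPM and F7 at 15.2 to 17.1 CPM. These are values of unmapped hashtags of 1 pool and were not tested.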
